A study of Mus musculus with 6 samples.

Results

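In Ink4a-/- murine astrocytes transfected with a JAG1 vector, 50 genes were read in every library while the same genes were close to silent in every control library. They were chosen by their own read counts: of the 23282 gene rows in the tables, 55, or 0.236%, had at least 30 reads in each of the 3 JAG1 libraries and at most 5 reads in each of the 3 control libraries, and Sema3e, Ica1, Frmd8, Nid1 and Areg were left out of these by name. The difference between the groups is therefore how the genes were chosen. It is given below as a description and carries no test.

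Every library came from the same kind of cell, a mouse brain astrocyte line labelled Ink4a -/- and called Ink4a/Arf-/- in the methods of the study, that is, without this tumor suppressor locus, grown in DMEM with fetal bovine serum. The control cells had received the empty vector pcDNA3.1-puro, and the JAG1 cells the same vector with JAG1. The labels give the control genotype as WT, read here as without added JAG1, since the control cells share this deletion. Whether the replicates stem from different transfections or clones is not given in the sources used here, and their spread may be purely technical. RNA was read with the QuantSeq method, which counts a tag at the 3' end of a polyadenylated transcript, so that CPM (reads per 1000000 reads after TMM scaling) was not divided by transcript length. The control libraries held 20489062, 18889751 and 18952552 reads on genes, and the JAG1 libraries 20071276, 14341634 and 16442278. Depending on the library, 30 reads equalled between 1.48 and 2.06 CPM and 3 reads between 0.148 and 0.206 CPM. In bulk RNA, fewer cells with a transcript and less transcript per cell cannot be told apart.

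The row of Jag1, the gene carried by the JAG1 vector, had 182, 201 and 214 reads in control and 304, 197 and 227 in JAG1 libraries. This was 10.3 ± 1.17 CPM (SD, n = 3) against 14.2 ± 0.862 CPM, and the log2 fold change was 0.46 with a standard error of 0.11 (adjusted p = 0.00446, edgeR quasi-likelihood test). Each JAG1 library lay above each control library in CPM, and a read count cannot tell vector transcripts from those of the cell's own gene. Whether the 3' tags of vector transcripts were counted in this row is not known here. The row therefore does not show how strong the overexpression was. Of the 11712 rows with enough reads to be tested, 27.4% were higher and 27.7% lower in JAG1 libraries at an adjusted p under 0.05, and these shares are the background for every count of called genes below. Chromosomes differed as well: the median log2 fold change was 0.61 over the 422 tested rows of chromosome 19 and −0.53 over the 458 of chromosome 15, each of which holds 2 of the 50 genes.

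A gene can be kept close to silent by several layers of control. DNA methylation and Polycomb complexes hold promoters inactive in cells where a gene is not used, and these states are copied when a cell divides. Developmental regulators, such as the HOX genes that record the position of a cell along the body axis, are typical targets of Polycomb. JAG1 is a membrane ligand of NOTCH receptors, and its own intracellular domain, JICD1, can enter the nucleus, where SMAD3 is one of its partners.

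The 50 genes were not abundant. Their mean level in the JAG1 libraries ran from 2.03 to 24.6 CPM with a median of 5.20 CPM, where the tested rows had a median of 21.7 CPM. Together they took 357.8, 361.3 and 357.5 CPM in the JAG1 libraries and 3.21, 2.95 and 2.51 CPM in the control libraries. In the control libraries, 14 of the genes had no read in any library, 13 had reads in 1 library, 10 in 2 and 13 in all 3. The name silent thus holds in the strict sense for 14 genes, while 36 left at least 1 read in the controls. The count limits let every one of the genes pass the filter on low counts, and they could pass it only through the JAG1 libraries. Among the 3 JAG1 libraries the coefficient of variation had a median of 11.7%, and in 7 genes the highest of these libraries was over 1.5 times the lowest. The value expected from counting error, taken from the mean reads of each gene, had a median of 10.7%. A coefficient estimated from 3 libraries tends to lie below its true value, so that the 2 medians are not directly comparable.

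**Figure D1:**
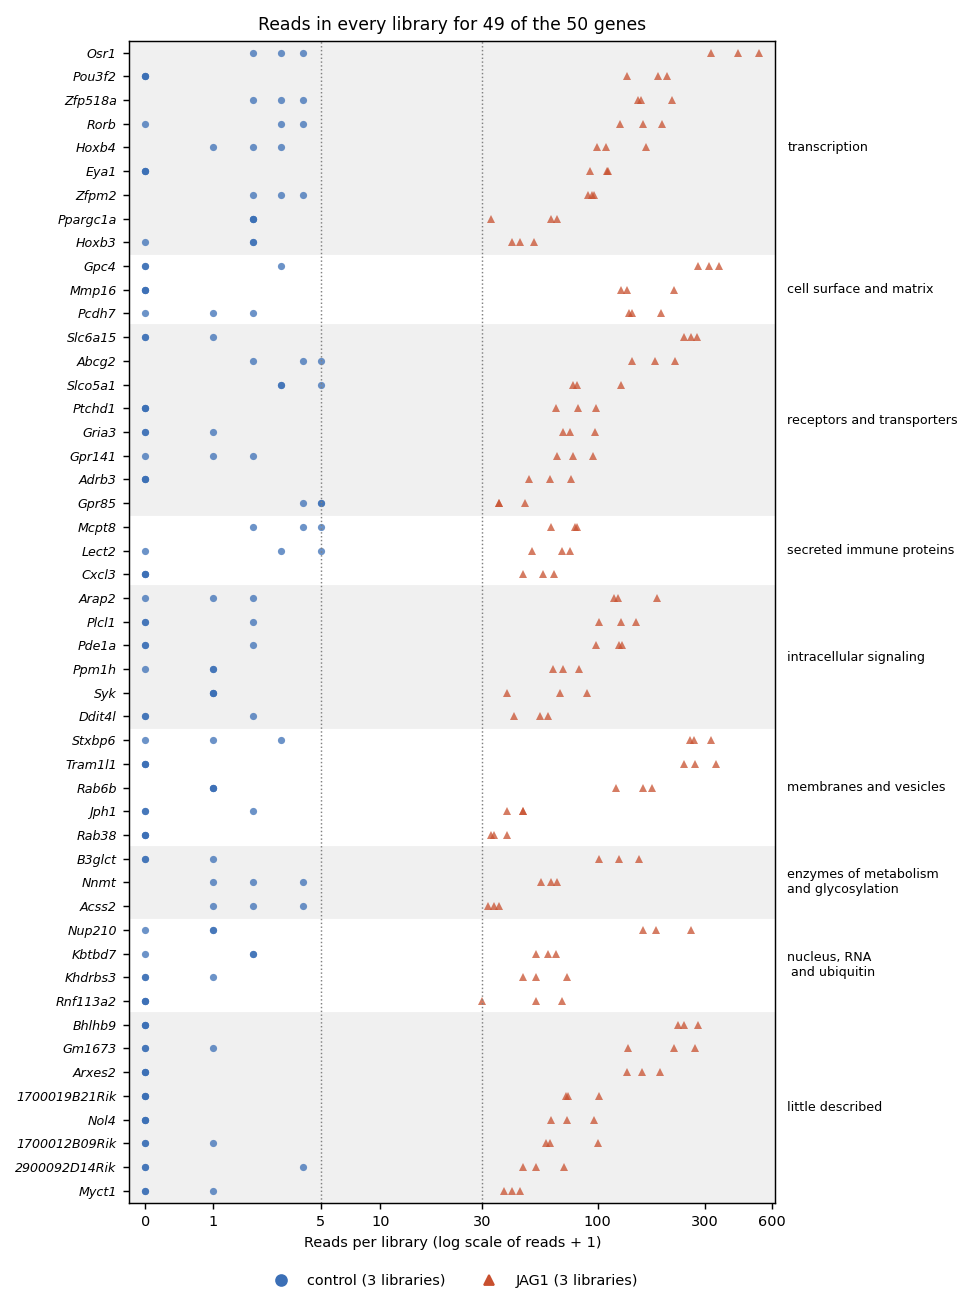
Reads in each of the 3 control libraries (circles) and 3 JAG1 libraries (triangles) for 49 of the 50 genes, grouped by what they do, on a log scale of reads + 1; darker symbols are libraries with equal counts and the dotted lines mark the limits of 5 and 30 reads. Between the lines there is no point, which the choice of the genes fixed, and Osr1 reaches the highest counts.

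**Figure D2:**
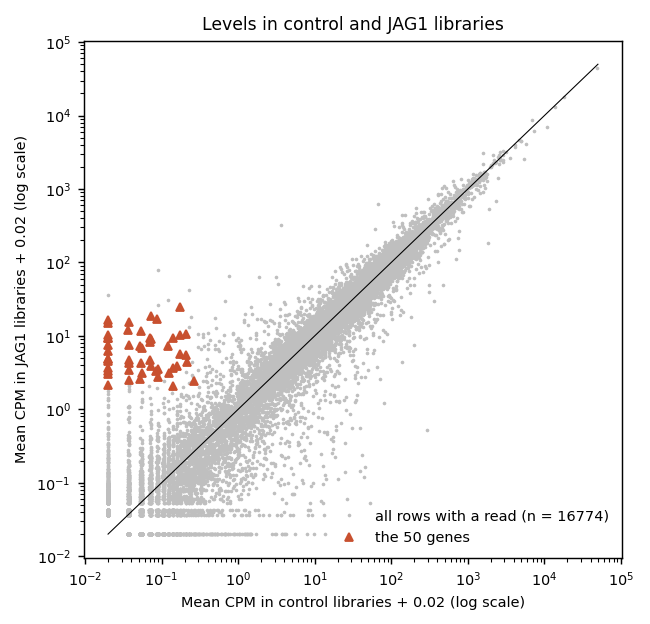
Mean CPM in the 3 JAG1 libraries against mean CPM in the 3 control libraries, both with 0.02 added and on log scales, for the 16774 rows with at least 1 read (gray) and the 50 genes (triangles); the line marks equal levels. The 50 genes lie in a corner with control means of at most 0.242 CPM and JAG1 means from 2.03 to 24.6 CPM.

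The limits cut through a continuous range. Just inside the limit for the JAG1 libraries were Rnf113a2, with 30 reads in its lowest library, Acss2 with 32 and Ppargc1a with 33. Just outside it were Coro2a with 28 reads and Pdgfrl and Ttc30a1 with 26 each. At the control limit, 5 of the genes had a library with 5 reads, among them Gpr85, Lect2 and Mcpt8. Mfhas1, Pantr1 and Ptchd4 fell outside with 6 reads in a single control library, although Mfhas1 had 891, 636 and 629 reads in the JAG1 libraries.

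The sequences before the starts of the genes differed among themselves in base composition. RefSeq promoter windows (GRCm38.p6, 250 bases before to 50 after the most upstream start that the promoter table lists for a gene) were found for 33 of the 50 genes. In 18 of these the listed start lay inside the span that RefSeq gives the gene, by a median of 654.5 bases and by over 2000 bases in Bhlhb9, Pde1a and Ppargc1a, so that their windows belong to an inner start. The 250 bases before the start are printed for 5 of them, 5′ to 3′ on the strand of the gene, with every CG dinucleotide, the site of DNA methylation, in capitals. They were chosen to show windows without and with CG and a gene of each of 3 loci described below. Their counts run from 0 to 18 CG, whereas Ptchd1, not printed, has 41. The capital C that ends Pou3f2 is not part of a CG within the 250 bases and is not counted. The windows are those of Pou3f2 (chr4:22488367-22488616, minus strand, 18 CG), Arxes2 (chrX:135993570-135993819, plus strand, 14 CG), Hoxb4 (chr11:96318017-96318266, plus strand, 14 CG), Cxcl3 (chr5:90785851-90786100, plus strand, 7 CG) and Mcpt8 (chr14:56085198-56085447, minus strand, 0 CG, 302 bases inside the outer start of the gene).
Pou3f2: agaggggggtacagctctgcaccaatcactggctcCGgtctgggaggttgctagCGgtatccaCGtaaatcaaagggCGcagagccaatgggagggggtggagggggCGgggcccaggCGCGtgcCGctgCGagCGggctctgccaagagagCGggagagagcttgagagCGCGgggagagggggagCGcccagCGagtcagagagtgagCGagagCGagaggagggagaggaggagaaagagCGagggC
Arxes2: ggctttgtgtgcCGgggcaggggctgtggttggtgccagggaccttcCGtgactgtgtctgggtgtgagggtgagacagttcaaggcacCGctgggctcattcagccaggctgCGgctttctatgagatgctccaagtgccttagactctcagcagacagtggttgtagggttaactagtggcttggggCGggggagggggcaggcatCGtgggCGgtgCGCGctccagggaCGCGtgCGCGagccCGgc
Hoxb4: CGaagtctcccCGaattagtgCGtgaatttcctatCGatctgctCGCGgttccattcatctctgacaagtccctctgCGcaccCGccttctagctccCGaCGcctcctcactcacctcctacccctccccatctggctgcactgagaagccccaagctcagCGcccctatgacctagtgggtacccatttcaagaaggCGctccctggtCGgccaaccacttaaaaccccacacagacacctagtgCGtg
Cxcl3: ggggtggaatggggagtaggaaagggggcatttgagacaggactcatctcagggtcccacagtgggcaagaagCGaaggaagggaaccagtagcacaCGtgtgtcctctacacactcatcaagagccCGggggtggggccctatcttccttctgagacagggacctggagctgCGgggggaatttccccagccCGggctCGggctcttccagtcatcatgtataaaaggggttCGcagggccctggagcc
Mcpt8: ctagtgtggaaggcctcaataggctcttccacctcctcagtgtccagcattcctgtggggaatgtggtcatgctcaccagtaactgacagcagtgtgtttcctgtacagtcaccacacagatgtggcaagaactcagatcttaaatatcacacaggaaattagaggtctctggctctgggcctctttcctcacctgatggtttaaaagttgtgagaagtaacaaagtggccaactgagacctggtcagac

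Of the 33 windows, 16, or 48.5% (exact 95% binomial interval 30.8 to 66.5%), were rich in CpG, that is, with over 50% GC and a ratio of observed to expected CpG of at least 0.6. The same held for 71.6% of 8854 windows of tested genes and for 34.0% of all 27018 windows. With a ratio of at least 0.75, the shares were 36.4% (interval 20.4 to 54.9%), 53.4% and 24.2%. At that limit the interval held the value of tested genes. Pou3f2, Arxes2, Gpc4, Nup210 and Arap2 were among the CpG-rich ones, Hoxb4 lay just under the limit with a ratio of 0.593, and Mcpt8, Gpr141 and Abcg2, with 0, 2 and 3 CG in the 250 bases, among the others. The GC box GGGCGG, a match for SP1, was in 39.4% of the 33 windows, 66.3% of those of tested genes and 35.9% of all. CCAAT, the NF-Y box, was in 21.2%, 39.8% and 38.0%. The TATA box TATAAA was in 15.2% of the 33 windows, 6.55% of those of tested genes and 14.2% of all, and the 5 genes with it were Abcg2, Gpr141, Cxcl3, Ddit4l and Myct1. TGGGAA, the core of the site of the NOTCH effector RBPJ, was in 27.3%, 22.7% and 25.5% of the windows in the same order. CAGAC, the SMAD element, was in 51.5%, 46.9% and 49.7%, CATNTG, an E-box of the kind TWIST1 binds, in 27.3%, 25.04% and 39.4%, and TGANTCA, the AP-1 site, in 9.09%, 4.62% and 7.92%. Both strands were searched and no motif in this set contains another. A match is a description of the letters in the window.

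**Figure D3:**
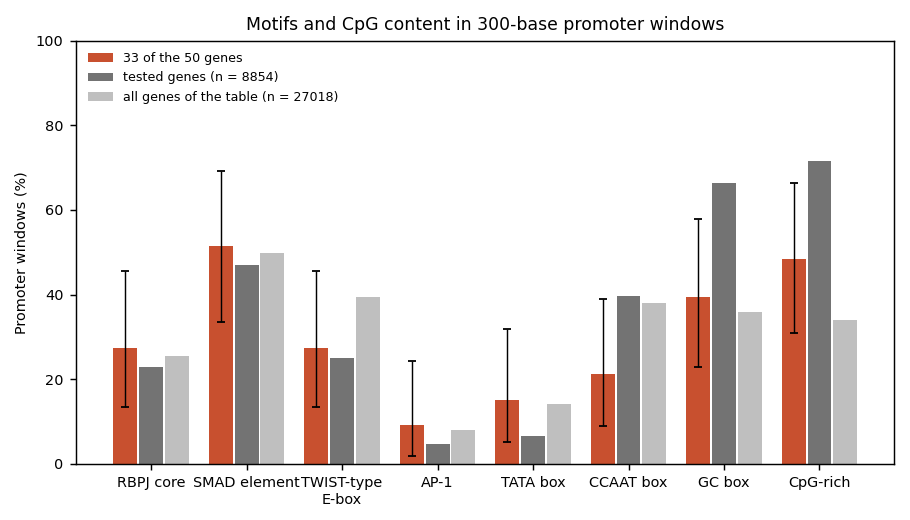
Share of 300-base promoter windows (%) that hold each motif on either strand or are rich in CpG, for 33 of the 50 genes, for 8854 tested genes and for 27018 genes of the RefSeq table; error bars are exact 95% binomial intervals. The GC box and CpG-rich (ratio of at least 0.6) bars of the 33 genes, at 39.4% and 48.5%, lie below the 66.3% and 71.6% of tested genes. The other intervals for the 33 genes except that of the CCAAT box hold the value of tested genes.

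Regulators of transcription made up 9 of the 50 genes and include the most abundant one. Osr1, a zinc finger factor of embryonic mesenchyme and kidney, had 4, 3 and 2 reads in the control libraries and 525, 319 and 424 in the JAG1 libraries, or 24.6 ± 2.32 CPM (SD, n = 3), a ratio of 160 (95% interval 84.0 to 351). These intervals are exact for the summed reads of the groups and cover counting error only. Pou3f2, a POU factor of neural precursors, had no read in any control library and 205, 135 and 187 reads in the JAG1 libraries, at least 66.2-fold higher against a floor of 3 reads per control library. Zfp518a, a zinc finger protein, had 4, 2 and 3 reads against 216, 151 and 156. The JAG1 libraries of these genes agreed within a coefficient of variation of 6.50% to 10.1%. Rorb, an orphan nuclear receptor of retina and cortex, had 3, 4 and 0 reads in control and 194, 126 and 159 in JAG1 libraries. Hoxb4 had 2, 1 and 3 against 165, 109 and 99, and Hoxb3, its neighbor and like it a homeobox factor of axial position, had 2, 2 and 0 against 52, 41 and 45.

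Eya1, a phosphatase and transcriptional coactivator of organ development, had no control read and 110, 93 and 111 reads in the JAG1 libraries, at least 40.0-fold higher. Zfpm2, which binds GATA factors in heart and gonad, kept 2, 3 and 4 reads in the controls against 96, 91 and 94, and so had a ratio of only 35.5 (95% interval 18.4 to 78.4). Ppargc1a, a coactivator that drives the formation of mitochondria, was the least even of the 9 across JAG1 libraries, with 66, 33 and 62 reads and 2 reads in each control library.

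Proteins of the cell surface and matrix were 3. Gpc4, a heparan sulfate proteoglycan that astrocytes release and that promotes synapse formation, had 0, 3 and 0 control reads and 347, 281 and 315 reads in JAG1 libraries, or 18.6 ± 1.12 CPM (SD, n = 3) and a ratio of 357 (95% interval 122 to 1734). All its control reads were in replicate 2. Mmp16, a membrane-bound metalloproteinase that can activate MMP2, had no control read and 220, 127 and 136 reads in JAG1 libraries, at least 59.99-fold higher. Mmp2 itself, tested apart from the choice of the genes and named after its value was seen, fell from 66, 90 and 81 reads to 10, 10 and 7 (log2 fold change −2.94, adjusted p = 4.47e-06, edgeR). Pcdh7, a protocadherin, had 2, 1 and 0 against 192, 138 and 143.

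Receptors and transporters were 8. Slc6a15, a transporter of neutral amino acids, had 0, 0 and 1 reads in control and 277, 260 and 243 in JAG1 libraries, which gives a ratio of 886 whose interval, 159 to 35036, shows how little a single control read fixes. Abcg2, an efflux pump that marks stem-like side populations, had 5, 2 and 4 against 221, 142 and 181, a ratio of 56.2 (95% interval 31.1 to 113). Slco5a1, of the organic anion transporter family, had 3, 3 and 5 against 127, 81 and 78. The remaining 5 lay lower, between 2.40 and 4.84 CPM in the JAG1 libraries. Gria3, an AMPA-type glutamate receptor subunit, had 97, 70 and 75 reads there, and Ptchd1, a patched-domain membrane protein, had 82, 65 and 98. Adrb3, the beta-adrenergic receptor of fat tissue, had 61, 49 and 76 reads with none in the controls. Among the orphan receptors, Gpr141 had 78, 66 and 95 reads. Gpr85, with 4, 5 and 5 reads in control and 36, 47 and 36 in JAG1 libraries, had the smallest ratio of the 50 genes, 9.65 (95% interval 5.53 to 18.2).

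Secreted proteins of the immune system were 3, between 3.30 and 4.37 CPM in JAG1 libraries. Cxcl3, a chemokine for neutrophils, had no control read and 57, 46 and 64 reads in JAG1 libraries. Mcpt8, a protease known from basophils, had 2, 5 and 4 against 79, 62 and 81, and Lect2, a leukocyte chemotaxin made by liver, 3, 5 and 0 against 75, 51 and 69. None of the groups overlapped, as the limits require.

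Of the 6 genes of intracellular signaling, Arap2, a GTPase-activating protein for ARF6, was the highest, with 2, 1 and 0 reads in control and 184, 123 and 118 in JAG1 libraries (8.26 ± 1.02 CPM, SD, n = 3). Plcl1, a phospholipase C-like protein without catalytic activity, had 2, 0 and 0 against 148, 102 and 127. Pde1a, a calmodulin-dependent phosphodiesterase of cyclic nucleotides, had 0, 0 and 2 against 129, 98 and 125. The 3 others were weaker: the phosphatase Ppm1h had 83, 70 and 63 reads in JAG1 libraries, and Ddit4l, an inhibitor of mTORC1, had 60, 42 and 55. Syk, the tyrosine kinase of immune receptors, had 90, 68 and 39, the second widest spread of the 50 genes with a coefficient of variation of 33.3%.

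Proteins of membranes and vesicles were 6. Stxbp6, or amisyn, which binds SNARE proteins, had 3, 1 and 0 reads in control and 322, 258 and 270 in JAG1 libraries (16.7 ± 0.899 CPM, SD, n = 3). Tram1l1, which resembles the TRAM1 protein of the endoplasmic reticulum translocon, had no control read and 337, 242 and 273 reads in JAG1 libraries, at least 107-fold higher and the highest of the 14 genes without a control read. Its parent-like gene Tram1 had 34.5 ± 1.77 and 34.3 ± 0.979 CPM (SD, n = 3), with a log2 fold change of −0.00894 (adjusted p = 0.928, edgeR). Rab6b, a Golgi GTPase of neurons, had 1 read in each control library and 175, 160 and 121 in JAG1 libraries. Jph1, which ties the plasma membrane to the sarcoplasmic reticulum in muscle, and Rab38, of melanosome transport, lay near the lower limit, with 46, 39 and 46 and with 39, 33 and 34 reads in JAG1 libraries.

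Enzymes were 3. B3glct, which adds glucose to O-fucose on thrombospondin repeats, had 0, 1 and 0 reads in control and 153, 125 and 102 in JAG1 libraries. Nnmt, which methylates nicotinamide, had 4, 2 and 1 against 62, 66 and 56, and Acss2, which makes acetyl-CoA from acetate, had 4, 2 and 1 against 34, 32 and 36, the lowest mean of the 50 genes at 2.03 CPM.

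Proteins of the nucleus, RNA and ubiquitin were 4. Nup210, a membrane protein of the nuclear pore, had 1, 1 and 0 reads against 262, 160 and 183, or 11.7 CPM, and the other 3 lay between 2.97 and 3.51 CPM. These were Kbtbd7, an adaptor of cullin 3, the splicing regulator Khdrbs3, and the RING finger gene Rnf113a2, whose 69, 53 and 30 reads in JAG1 libraries gave the widest spread of all, 33.6%. Rnf113a1, its relative on chromosome X, had 236, 201 and 229 reads in control and 350, 246 and 309 in JAG1 libraries. How reads shared by such copies were assigned is not given in the sources used here.

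The last 8 genes are little described or are not known to code for a protein of known role. Bhlhb9, of a family of proteins that bind G protein-coupled receptors, had no control read and 281, 228 and 242 reads in JAG1 libraries, at least 95.2-fold higher. Arxes2, a gene of chromosome X known from fat cell formation, had none against 190, 136 and 158, with a coefficient of variation of 1.26%. Gm1673 had 1, 0 and 0 against 271, 137 and 219. The other 5 were 1700019B21Rik, which RefSeq lists as the long noncoding RNA Tslrn1, the long noncoding RNA 2900092D14Rik, Nol4, 1700012B09Rik and Myct1, and they lay between 2.46 and 4.85 CPM in the JAG1 libraries.

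The genes were spread over 18 chromosomes, with none on 16, 17 and Y. Chromosomes 5 and X held 6 each, or 12% of the 50, where 5.76% and 4.22% of all rows with a known chromosome lie. Those on X were Gpc4, Bhlhb9, Arxes2, 1700019B21Rik, Gria3 and Ptchd1.

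Some lay side by side, and 4 loci were looked at more closely after their values had been seen; their counts are a description. At the Hoxb locus on chromosome 11, Hoxb3 and Hoxb4 adjoin Hoxb5, with 6, 4 and 4 reads in control and 43, 57 and 34 in JAG1 libraries, and Hoxb6, with 3, 7 and 3 against 69, 63 and 89. Hoxb13, at the far end, had 1, 1 and 0 against 27, 16 and 12. Hoxb1, Hoxb2, Hoxb7, Hoxb8 and Hoxb9 had at most 2 reads in any library, so that reads were found in the middle of the cluster and at its 5′ end. Hoxb3 spans Hoxb4 in the annotation, and whether the counts used strand is not given in the sources used here.

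At the Pou3f3 locus on chromosome 1, the long noncoding RNA 2900092D14Rik had 4, 0 and 0 reads in control and 71, 53 and 46 in JAG1 libraries. Pou3f3, a relative of Pou3f2 and likewise a factor of neural precursors, had 33, 36 and 38 reads in control and 1374, 889 and 1025 in JAG1 libraries. The noncoding Pantr1 had 5, 5 and 6 against 212, 173 and 149, and Pantr2 had none against 30, 22 and 19. These 4 transcripts were thus higher in each JAG1 library, while Dalir, a further transcript of the locus, had 0 reads in all 6 libraries. Pou3f3, the most read of them, was not silent in the controls.

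On chromosome 5, Cxcl3 lies among other chemokine genes, of which Cxcl5 came close to its pattern with 0, 0 and 1 reads in control and 43, 35 and 26 in JAG1 libraries. Ppbp went the other way, with 13, 9 and 9 reads in control and 0 in each JAG1 library. Cxcl1, the most read, had 926, 1067 and 936 against 838, 598 and 603, and Pf4 had 0 in all 6 libraries.

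On chromosome X, Bhlhb9 and Arxes2 follow each other, both with 0 reads in each control library. Around them, Gprasp2 and Arxes1 had 0 reads in all 6 libraries, while Gprasp1, with 165, 130 and 133 reads in control and 226, 133 and 157 in JAG1 libraries, and Armcx5 were read in both groups. Tcp11x2, further before Bhlhb9, went the other way, with 12, 11 and 5 reads in control and 0, 2 and 0 in JAG1 libraries. The annotated gene of Bhlhb9 overlaps that of Gprasp2, and Arxes1 is a close copy of Arxes2, so that the split of reads within each pair is uncertain.

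**Figure D4:**
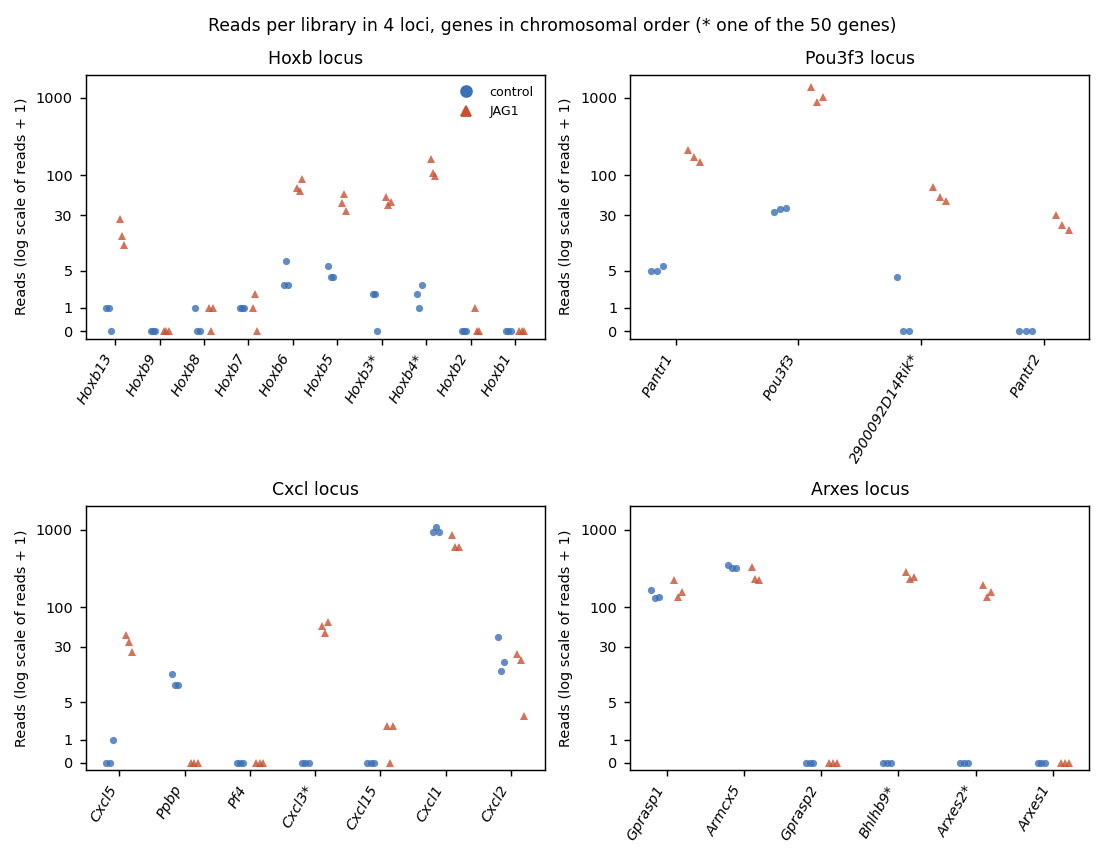
Reads in each control (circles) and JAG1 library (triangles) for genes of 4 loci in chromosomal order, on a log scale of reads + 1; a star marks one of the 50 genes. In the Hoxb locus the genes from Hoxb6 to Hoxb4 reach 34 to 165 reads in JAG1 libraries while Hoxb7 to Hoxb9 and Hoxb2 and Hoxb1 stay at 2 or fewer, and in the Arxes locus genes at 0 in both groups lie beside Bhlhb9 and Arxes2.

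Across all the genes, the surroundings were mostly of another kind. Within 150 kb of either end of 43 of them lay 166 other gene symbols, of which 84 had at most 5 reads in every library and 54 had at least 30 in every library. The 2 nearest tested genes on each side were then compared between the groups by edgeR's quasi-likelihood test. The choice did not use their reads, but a row close to silent in 1 group could be tested only through the other. Of 186 such neighbors, 63, or 33.9%, were higher in JAG1 libraries and 39, or 20.97%, were lower, beside 27.4% and 27.7% of all tested rows, and their median log2 fold change was 0.05 beside 0.00386. These shares were not adjusted for the differences between whole chromosomes, such as those of chromosomes 19 and 15 given above. With 1 neighbor on each side, 34 of 94 were higher and 19 lower. With 5 on each side, 125 of 454 were higher and 123 lower, which is close to the background. The 35 neighbors whose lower coordinate lay within 100 kb of that of the gene, a distance set after the values were known, included 15 that were higher and 5 that were lower. Among the 15 were Cxcl5, Pantr1, Pantr2, Pou3f3, Hoxb5 and Hoxb6 of the loci above, and Tgfbi was among the 5. Of these, Cxcl5, Pantr1, Pantr2, Hoxb5 and Hoxb6 had at most 7 reads in any control library and so passed the filter through their JAG1 reads. Among the 63, the same held at least for Fry, Elmo1, Skap1 and Mbnl3. Among the 39, at least Medag and Sulf1 passed through their control reads. The direction of such rows is a description only, and the shares above include them.

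Large falls stood beside the 50 genes as well as large rises. The called neighbors with a mean of at least 1 CPM over all 6 libraries that rose most were Cxcl5 (adjusted p = 5.07e-06), Pantr1 (log2 fold change 5.21, standard error 0.23, adjusted p = 9.21e-09) and Pou3f3 (5.11, standard error 0.11, adjusted p = 6.34e-11, all by edgeR). Those that fell most were Medag, a gene of fat cell formation and the second tested gene before B3glct, with 77, 70 and 72 reads in control and 0 in each JAG1 library (adjusted p = 1.02e-06, edgeR). Sulf1, which trims heparan sulfate and lies beside Slco5a1, had 78, 67 and 64 reads against 1, 0 and 0 (adjusted p = 3.35e-07, edgeR). Tgfbi, a matrix protein induced by TGF-β and the neighbor of Lect2, fell from 24.2 ± 1.79 to 1.31 ± 0.166 CPM (SD, n = 3), which is −4.18 on the log2 scale with a standard error of 0.14 (adjusted p = 1.02e-09, edgeR). Cxcl5 and Pantr1 passed the filter only through their JAG1 reads, and Medag and Sulf1 only through their control reads. The directions of these genes are therefore a description only.

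**Figure D5:**
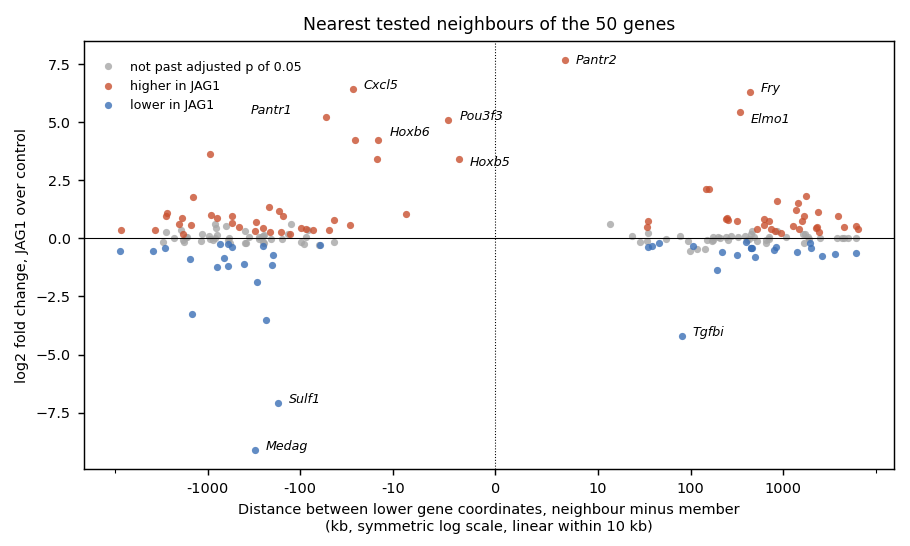
Log2 fold change (JAG1 over control, edgeR) of the 2 nearest tested genes on each side of the 50 genes against the distance between the lower coordinates of the genes in kb on a symmetric log scale; colors give the call at an adjusted p of 0.05, and a gene beside 2 of the 50 appears 2 times. Most points lie near 0, the rises above 3 include Pantr2, Cxcl5, Pou3f3, Pantr1 and the Hoxb genes, and Medag and Sulf1 are the lowest.

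Relatives of the genes, taken as tested rows whose symbol has the same letters before its first digit (families of over 60 rows left out), did not follow them as a body. Of 95 such rows, 29 (30.5%) were higher and 30 (31.6%) lower, near the background of 27.4% and 27.7%, and the median over the 95 was 0.0185 on the log2 scale. Called relatives with the same mean of at least 1 CPM that rose most were Cxcl5, Ptchd4, with 3, 6 and 1 reads in control and 214, 134 and 150 in JAG1 libraries (log2 fold change 5.76, standard error 0.29, adjusted p = 2.91e-08, edgeR), and Pou3f3. Several relatives fell. Osr2, the sister of Osr1, fell from 17.4 ± 1.35 to 0.403 ± 0.149 CPM (SD, n = 3), which is −5.45 on the log2 scale with a standard error of 0.20 (adjusted p = 2.54e-09, edgeR). Mmp9, a secreted gelatinase in the family of Mmp16, had 57, 56 and 58 reads in control and 2, 0 and 1 in JAG1 libraries (adjusted p = 1.17e-06, edgeR). Cxcl12, a chemokine for stem and immune cells, had 6162, 5268 and 5684 reads against 16, 10 and 0 (adjusted p = 2.00e-10, edgeR). Gpc1, in the family of Gpc4 and named after its value was seen, fell from 398 ± 18.7 to 142 ± 2.81 CPM (SD, n = 3; adjusted p = 1.86e-09, edgeR). Of 9 other Hoxb rows, only 3 had enough reads to be tested, and these, Hoxb5, Hoxb6 and Hoxb13, were higher. With at most 7 reads in any control library, the 3 passed the filter through their JAG1 reads. So did Cxcl5 and Ptchd4, while Mmp9 passed it through its control reads. The direction of each of these rows is a description only, whatever its adjusted p.

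The machinery of DNA methylation and Polycomb was then examined over 24 genes, all of them tested. Of these, 3 were higher and 8 lower, and the median over the 24 was −0.07 on the log2 scale, beside 0.00386 over all tested rows. The maintenance methyltransferase Dnmt1 had 192 ± 13.7 CPM in control and 193 ± 8.74 CPM in JAG1 libraries (SD, n = 3; log2 fold change 0.00504), and Ezh2, the Polycomb methyltransferase, 130 ± 8.21 and 125 ± 3.73 CPM, neither past the threshold. The 3 largest falls were those of Tet1, a demethylating enzyme, with 27, 28 and 32 reads in control and 2, 2 and 0 in JAG1 libraries (log2 fold change −4.15, standard error 0.52, adjusted p = 4.59e-05), of the de novo methyltransferase Dnmt3b, from 8.05 ± 0.942 to 3.08 ± 0.387 CPM (log2 fold change −1.39, standard error 0.16), and of Cbx2 (−0.67, standard error 0.16), all past the threshold in edgeR's test. The rises were those of Mbd2 (0.38, standard error 0.09), Setdb1 (0.36, standard error 0.08) and Hdac1 (0.15, standard error 0.05).

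Of 26 genes of the NOTCH pathway and the JICD1 complex, 15 were tested, and 5 were higher and 4 lower. The NOTCH target Nrarp had the largest rise, from 3.48 ± 0.406 to 18.6 ± 1.32 CPM (SD, n = 3; log2 fold change 2.43, standard error 0.12). Hes1, another target, followed with a log2 fold change of 1.91 (standard error 0.09), and the receptor Notch1 with 1.74 (standard error 0.12). The largest falls were those of Notch2 (−0.50, standard error 0.11) and Rbpj (−0.28, standard error 0.06). Hes5, Hey2, Heyl and Dtx1 had 0 reads in all 6 libraries.

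Since several of the 50 genes are known from other cell types, marker lists were read beside them; their part in the result was not tested. Of 13 astrocyte markers, 8 were tested, 1 was higher and 6 lower, and Gfap and Aqp4, which define mature astrocytes, had 0 reads in all 6 libraries. The summed level of the list was 3203, 3513 and 3699 CPM in control and 3374, 3435 and 3412 CPM in JAG1 libraries, most of it Vim. Sox9, a glial transcription factor, fell from 181 ± 4.64 to 18.0 ± 1.25 CPM (SD, n = 3; log2 fold change −3.33, standard error 0.07), and Nfia, another, rose from 3.12 ± 0.693 to 63.9 ± 3.44 CPM (log2 fold change 4.35, standard error 0.12), both past the threshold in edgeR's test.

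For neurons, 3 of 11 markers were tested, with 1 higher and 2 lower, and the sum went from 100.3, 108.1 and 110.0 CPM to 60.3, 58.9 and 61.9 CPM. Tubb3, the most abundant in control, fell from 78.1 ± 4.67 to 8.40 ± 0.550 CPM (SD, n = 3), and Map2, the most abundant in JAG1 libraries, rose from 25.1 ± 1.07 to 51.3 ± 1.13 CPM, both past the threshold in edgeR's test. Syt1, Snap25 and Gad1 had no read. For fibroblasts and pericytes, 1 of 6 tested markers was higher and 5 lower, with sums of 818, 827 and 854 CPM against 351, 360 and 312 CPM. Acta2 was the most abundant in control and Col1a1 in JAG1 libraries, and Lum, Rgs5 and Thy1 had no read. For microglia and macrophages, 1 of 3 tested markers was higher and 1 lower, the higher one being Cx3cr1 (adjusted p = 0.0449, edgeR), which did not pass with DESeq2. The sums were 6.12, 6.28 and 5.86 against 4.33, 4.68 and 3.58 CPM, led by Cd68, and none of the 10 was at 0 throughout. For the oligodendrocyte lineage, 1 of 3 was lower (6.17, 6.82 and 5.07 against 5.08, 4.54 and 5.22 CPM, led by Pdgfra), and Mog, Mag, Olig1, Sox10 and Cspg4 had no read. For endothelium, Flt1, the only tested marker, was higher, from 1.30 to 4.52 CPM, and Tek, Vwf and Emcn had no read. The sums were 1.04, 1.93 and 1.57 against 4.43, 4.47 and 4.92 CPM, most of it Flt1. Pecam1, Cdh5 and Cldn5 had few reads and lower means in JAG1 libraries, and Kdr had 1 read, in a JAG1 library. For epithelium, Krt19, the only tested marker, was higher, from 0.211 to 13.3 CPM, and Epcam was at 0. With 1, 7 and 4 reads in control, Krt19 passed the filter through its JAG1 reads, so that its direction is a description only. The sum went from 1.43, 1.88 and 1.62 to 13.8, 14.4 and 13.7 CPM, in JAG1 libraries most of it Krt19. The untested Cdh1, Cldn4, Krt8 and Krt18 had lower means in JAG1 than in control libraries. Of the sex-linked genes, all 4 on Y were higher, Ddx3y going from 98.3 ± 7.06 to 197 ± 5.02 CPM (SD, n = 3; log2 fold change 1.00, standard error 0.06), while Xist had 1, 1 and 7 reads in control and none in JAG1 libraries. None of the 50 genes is in any of these lists.

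With the limits turned around, 77 genes had at least 30 reads in each control library and at most 5 in each JAG1 library, against the 55 that met the limits in the direction described here.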

How the data were processed

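Total RNA of 3 control and 3 JAG1 libraries was sequenced with the QuantSeq 3' mRNA kit. The authors deposited 2 values per gene and library: raw read counts, and log2 values they had normalized by a method not given in the sources used here. The submitters' processing notes name Bowtie2, bedtools, edgeR and the builds GRCm38 and mm10, and whether counting used strand is not given in the sources used here. The genes described were found on the deposited counts. The genes, the lists and the 4 loci were chosen with earlier results of these data known, and nothing tested here supports that choice.

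Counts of 23282 rows were filtered with filterByExpr at a minimum count of 10, scaled by TMM and compared by the quasi-likelihood test of edgeR 4.0.16 in R 4.3.3, with Benjamini-Hochberg adjustment over the 11712 tested rows and a threshold of 0.05. The p-values measure only the spread between these libraries. Of the called neighbors and relatives averaging 1 CPM or more over the 6 libraries, those named are the 3 that rose most and the 3 that fell most. The 25 genes with the most CPM were given by library, except 1 of the 50 genes that is not reported here by name, as is 1 gene of a list. Folds are ratios of summed, library-scaled reads with exact conditional 95% intervals, or lower bounds against 3 counts per library. Rows were matched to RefSeq by symbol (22059) or synonym (1071), and 152 had no single match. Alternatives were DESeq2, other filters and limits, a replicate block, and leaving out each library.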

Additional observations from a re-analysis of the deposited data

How the results depend on the processing

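The number of genes chosen moved with the limits: 14 at 0 reads in each control library, 32 at no fewer than 60 reads in each JAG1 library, 82 at no fewer than 15, and 77 with the limits turned around. With counts scaled to library size it was 52, of which 47 are shared with the 50. Leaving out 1 library gave 50 to 57 genes, and since the limits apply to every library, it could not give fewer than 50. With 1 neighbor on each side, 34 were higher and 19 lower, and with 5 on each side, 125 and 123. By the authors' normalized log2 values, an alternative chosen after seeing the data, the median log2 difference of the 50 genes was 6.02, against 7.28 from the fit, whose value for genes at 0 reads depends on the prior count. Leaving out 1 library moved the rows called higher between 2724 and 3256 and those called lower between 2792 and 3344, and the log2 fold change of Jag1 between 0.37 and 0.52. The marker Cx3cr1 passed narrowly (adjusted p = 0.0449, edgeR) and was lost with DESeq2, upper-quartile scaling, no filter, the replicate block, and when any library but control replicate 2 was left out.

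Libraries of the 2 groups share replicate numbers. Their deviations from the group means correlated at 0.148, 0.0614 and 0.119, while pairs with different numbers lay between −0.144 and 0.0109. Each library thus correlated best with the one of its own number. The main fit did not pair the libraries, and whether those of the same number share a source was not tested. With the replicate block, 3380 rows were higher and 3331 lower, and 66 neighbors were higher and 41 lower. Depth limits the control side: a gene with no read in a library may still be present at up to 3 reads, which is between 0.148 and 0.161 CPM in the control libraries.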
